A study of Homo sapiens with 2 samples.

Results

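Epithelial cells are held together by tight junctions of claudins and occludin, by adherens junctions built on E-cadherin and catenins, and by desmosomes that anchor keratin filaments. In an epithelial-mesenchymal transition (EMT), transcription factors of the ZEB, SNAIL and TWIST families repress such junction genes, while vimentin, matrix and contractile actin genes are expressed. A panel of 57 genes from these systems, chosen by symbol, was read out of a count table of 54261 genes from RKO cells, a human colorectal carcinoma line. It comprises 30 junction and epithelial genes and 27 mesenchymal, EMT-factor and actin genes. Earlier work has tied HNRNPM, an RNA-binding protein of the hnRNP family, to alternative splicing in EMT.

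RNA was sequenced from RKO cells that had received siRNA against HNRNPM and from control RKO cells, with 1 library of each. The treatment label of the latter reads control RKO cells and the title NC-RKO, which is taken here to mean a control siRNA. The cells are otherwise one line in the same medium, and the control is labelled wild type. Neither the siRNA sequences nor the interval between transfection and harvest are given in the sources used here. Reads in genes totalled 13056118 with siHNRNPM and 19931360 with control siRNA. HNRNPM itself was at 79.6 CPM (counts per 1e6 reads of the scaled library) in the siHNRNPM library, against 144 CPM in the control library, or 55.2% of the control level. No difference below has a replicate check. Each log2 ratio is siHNRNPM over control, and the range after it is an exact 95% counting interval, which leaves out variation between cultures. A gene is called higher or lower where that interval excludes a ratio of 1. Fewer cells of a kind and less RNA per cell cannot be told apart in such bulk libraries.

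All 57 genes were listed in the table, and 36 were measured, that is, reached 1 CPM in at least 1 library. Of the 21 others, 6 had no read in either library and 15 had between 1 and 24 reads over both. Among the 36, 11 were higher in the siHNRNPM library (30.6%, against 22.0% of all 12925 measured genes) and 9 were lower (25%, against 26.1%). At least 2-fold higher were 4 (11.1%, against 2.45% of all measured genes), namely DSP, ACTA2, LOXL2 and CLDN3. At least 2-fold lower was 1 (2.78%, against 1.49%), ACTN4. CLDN3 and LOXL2 passed the minimum through the siHNRNPM library alone, and 3 of these 4 have a mean under 5 CPM, where 11.3% of all measured genes were called 2-fold higher. The median log2 ratio was 0.06 for the 17 measured junction and epithelial genes, -0.10 for the 19 measured mesenchymal and actin genes and -0.01 for all measured genes.

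**Figure D1:**
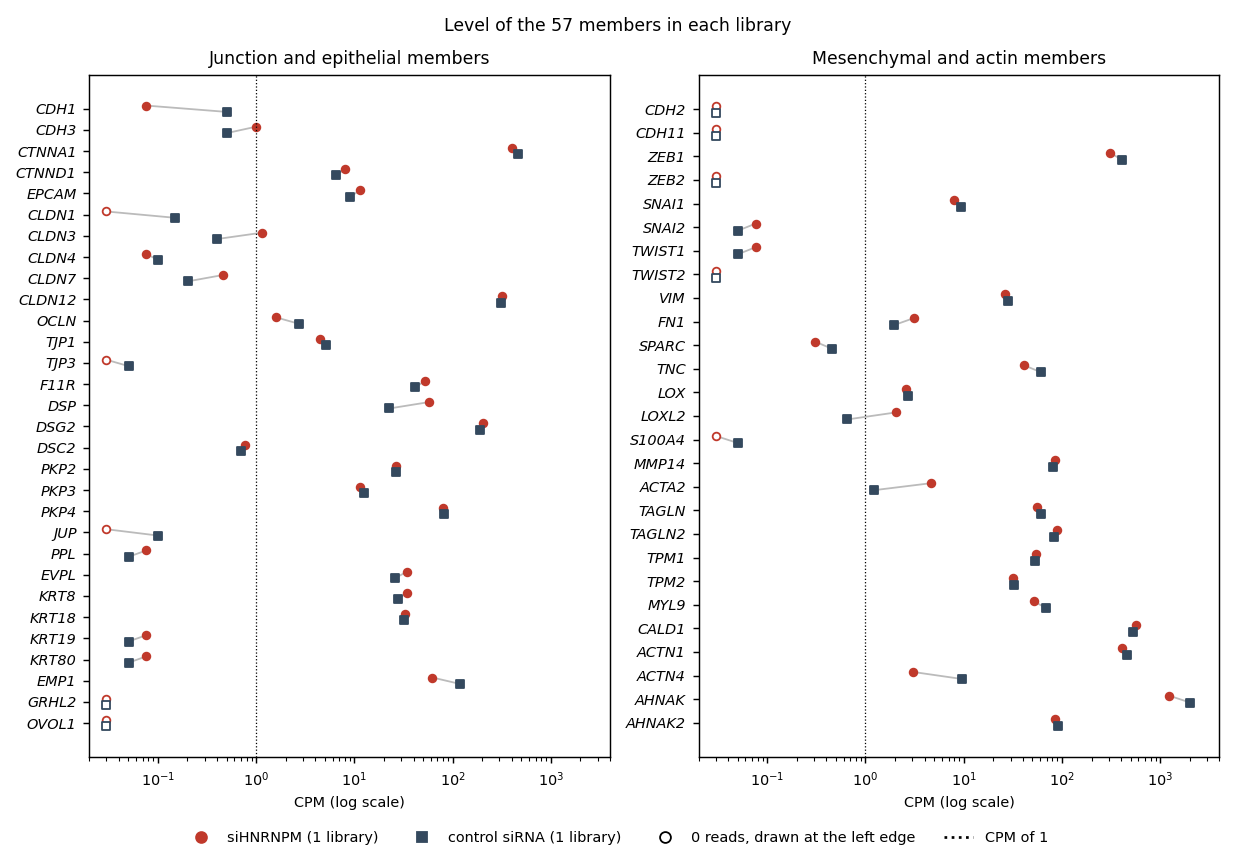
Level of each of the 57 genes in the siHNRNPM library (red circles) and the control library (dark squares), in CPM on a log axis, with open symbols at the left edge for 0 reads. AHNAK has the highest CPM in both libraries, 1222 with siHNRNPM and 2025 with control siRNA, while E-cadherin (CDH1), ZEB2, the TWIST genes and most claudins lie left of the dotted line at 1 CPM.

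Sequence was searched in members for short motifs, and none was common to them. Sites of 2 motifs are shown. The CArG box, CCWWWWWWGG with W for A or T, is not shown. It was in 1 of 69 promoters of members, against 1.16% of 35116 promoters. The first set shows the sequence GTGAGAA, in capitals, in the longest annotated 3′ UTR of members, because 4 of the 5 measured members that hold it were lower. This 7-base sequence came from an earlier search of these same 2 libraries, in which genes that hold it had lower ratios, so its link to lower values here is not independent evidence. It was found in 7 of 57 members (12.3%, against 13.1% of 19127 searched genes). Of the 5 measured members with the sequence, the sites of 4 are shown 5′ to 3′ with GENCODE release 29 positions on GRCh38.
EMP1 (chr12:13219090-13219119, plus strand): gggaactggagGTGAGAAgcattataatag
ZEB1 (chr10:31527742-31527771, plus strand): ttttttaaaatGTGAGAActtctgcactac
OCLN (chr5:69556795-69556824, plus strand): cagttggtgttGTGAGAAttcctcacacaa
KRT8 (chr12:52947232-52947261, minus strand): ccagcctctgtGTGAGAAggatggaggtag
Of the 5, EMP1, TNC, ZEB1 and OCLN were lower in the siHNRNPM library and KRT8 was higher, with a median log2 ratio of -0.58. The KRT8 site lies upstream of the RefSeq promoter of KRT8 (chr12:52926470-52926719, minus strand). A KRT8 transcript that starts at that promoter does not hold the site, and gene counts do not separate transcripts. The OCLN call is lost with upper-quartile scaling or a 99% interval. The 31 measured members without the sequence had a median of 0.03, with 10 higher and 5 lower. Over all measured genes with a searched 3′ UTR, the 1584 with the sequence had a median of -0.14, with 12.3% higher and 46.3% lower. The 9213 without it had a median of -0.01, with 23.3% higher and 25.8% lower. These sets were not matched for 3′ UTR length or level, and the part of either in the contrast was not tested.

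The second set shows DNA just before 2 desmosome genes that were both higher, DSP and DSG2 (RefSeq promoter, GRCh38.p14, plus strand), with the E-box CAGGTG in capitals. ZEB and SNAIL proteins are known to bind this E-box. Each promoter is 250 bases long and is shown as far as the gene start in GENCODE, which lies inside it.
DSP (chr6:7541421-7541574): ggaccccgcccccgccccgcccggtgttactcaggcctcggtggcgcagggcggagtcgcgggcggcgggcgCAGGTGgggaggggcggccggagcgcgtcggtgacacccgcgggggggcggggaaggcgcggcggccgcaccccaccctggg
DSG2 (chr18:31497927-31498042): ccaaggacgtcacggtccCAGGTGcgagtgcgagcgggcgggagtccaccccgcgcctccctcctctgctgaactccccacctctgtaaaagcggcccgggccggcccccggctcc
Each stretch holds 1 E-box, and each promoter holds 2 with the bases not shown. Searched on both strands, as CAGGTG or CACCTG, the E-box is in 17.5% of all 35116 promoters of that length. It is in 15 of 69 promoters (21.7%) of the 36 members that matched the promoter table. The 7 measured members with an E-box comprise DSP and DSG2, which were higher, OCLN and ZEB1, which were lower, and TJP1, LOX and TAGLN2, whose intervals span no change. Of the other measured desmosome genes, PKP4 holds no E-box in its promoters, and EVPL, PKP2 and PKP3 did not match the promoter table. A match is a description of the sequence, not of binding, and DSP and DSG2 differ widely in their ratios.

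E-cadherin, the core adhesion receptor of epithelial adherens junctions, was close to the detection limit. CDH1 had 1 read in the siHNRNPM library and 10 in the control library, a log2 ratio of -2.72 whose interval of -8.16 to 0.09 includes no change. P-cadherin (CDH3) had 13 reads against 10, or 0.993 CPM in the siHNRNPM library, just short of the minimum. N-cadherin (CDH2) and cadherin 11 (CDH11), the cadherins of mesenchymal cells, had 0 reads in both libraries, where 3 reads would be 0.229 CPM with siHNRNPM and 0.151 CPM with control siRNA.

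The cytoplasmic catenins were expressed without an abundant classical cadherin in the panel. The alpha-catenin gene CTNNA1, whose product links cadherin complexes to actin, had 402 CPM with siHNRNPM and 462 CPM with control siRNA, a log2 ratio of -0.20 (-0.25 to -0.15). The p120-catenin gene CTNND1 had 7.95 CPM against 6.54 CPM, and its interval of -0.10 to 0.66 spans no change. EPCAM, an epithelial adhesion molecule, was higher at 11.5 CPM against 9.0 CPM in the control library (log2 ratio 0.36, 0.04 to 0.68), a call lost with a 99% interval.

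CLDN12 was the one abundant claudin in the panel, at 321 CPM with siHNRNPM and 311 CPM with control siRNA, with an interval of -0.01 to 0.10. CLDN12 differs from the classical claudins in lacking the usual carboxy-terminal PDZ-binding motif. The junctional adhesion molecule gene F11R was higher, at 52.3 CPM against 41.6 CPM (log2 ratio 0.33, 0.18 to 0.48). CLDN3, a barrier-forming claudin, had 15 reads against 8, a log2 ratio of 1.51 with a wide interval of 0.18 to 2.96 that includes no change at 99%.

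OCLN, which encodes the tight junction protein occludin, was lower with 21 reads in the siHNRNPM library and 54 in the control library (log2 ratio -0.76, -1.56 to -0.01). Its interval includes no change with upper-quartile scaling (log2 ratio -0.73) or at 99%. The scaffold gene TJP1 (ZO-1) had 59 reads against 103, and its interval of -0.69 to 0.27 spans no change. GRCh38 carries OCLN and TJP1 a further time outside the primary chromosomes, and reads shared by such copies can be counted differently. CLDN7 had 6 reads against 4, CLDN4 had 1 against 2, CLDN1 had 0 against 3 and TJP3 had 0 against 1, too few for a comparison.

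DSP, which encodes desmoplakin, the plakin that ties the desmosome to keratin filaments, had 747 reads or 57.1 CPM in the siHNRNPM library, against 449 reads or 22.6 CPM in the control library. This is 2.53-fold higher, a log2 ratio of 1.34 (1.17 to 1.51), and the interval lies wholly beyond 2-fold. DSP ranked 181st from the highest among the 12925 measured genes, and among 4637 genes averaging from 10 to 50 CPM, 21 (0.453%) were called 2-fold higher. The gene spans 7541575 to 7586717 of chromosome 6, plus strand (GENCODE 29, ENSG00000096696.13).

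The other desmosome genes did not share a difference of that size. EVPL, which encodes the plakin envoplakin, was higher at 34.5 CPM against 26.1 CPM (0.40, 0.22 to 0.59). DSG2, the desmosomal cadherin desmoglein 2, had 206 CPM against 189.6 CPM, higher by a log2 ratio of 0.12 (0.05 to 0.19). The plakophilin genes PKP2, PKP3 and PKP4, which encode armadillo proteins of the plaque, had log2 ratios of -0.01, -0.11 and -0.03, each with an interval that spans no change. Of the 6 measured desmosome genes, 3 were higher and none of the 6 was lower. They are too few to read against the 22.0% higher and 26.1% lower of all measured genes. DSC2 had 10 reads against 14, JUP (plakoglobin) had 0 against 2 and PPL (periplakin) had 1 against 1. DSP and EVPL were thus higher while plakoglobin, which connects desmoplakin to the desmosomal cadherins, was at most 2 reads in either library.

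The simple-epithelium keratins KRT8 and KRT18, which pair to form filaments, were both expressed. KRT8 was higher, at 34.4 CPM with siHNRNPM and 27.5 CPM with control siRNA (log2 ratio 0.32, 0.14 to 0.50). Its partner KRT18 had 33.1 CPM against 31.8 CPM, with an interval of -0.12 to 0.24 that overlaps that of KRT8. The table lists 50 KRT8 and 67 KRT18 pseudogenes, which took 66 and 21 reads in the siHNRNPM library and 121 and 30 in the control library, and both parents can lose reads to them. KRT8 and KRT18 also share 525 exonic bases on opposite strands in the annotation. KRT19 and KRT80 had 1 read in each library.

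EMP1, which encodes a tetraspan membrane protein of the PMP22 family, was the most reduced member among the abundant ones. It had 817 reads or 62.4 CPM in the siHNRNPM library and 2341 reads or 118 CPM in the control library, 1.89-fold lower, with a log2 ratio of -0.92 (-1.03 to -0.80). Its relative EMP2 was higher, at 34.9 CPM against 25.3 CPM (0.46, 0.28 to 0.65), and PMP22 was lower, at 56.7 CPM against 71.3 CPM (-0.33, -0.46 to -0.20). EMP1 spans 13196716 to 13219939 of chromosome 12 (GENCODE 29, plus strand), and its GTGAGAA site stands above.

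**Figure D2:**
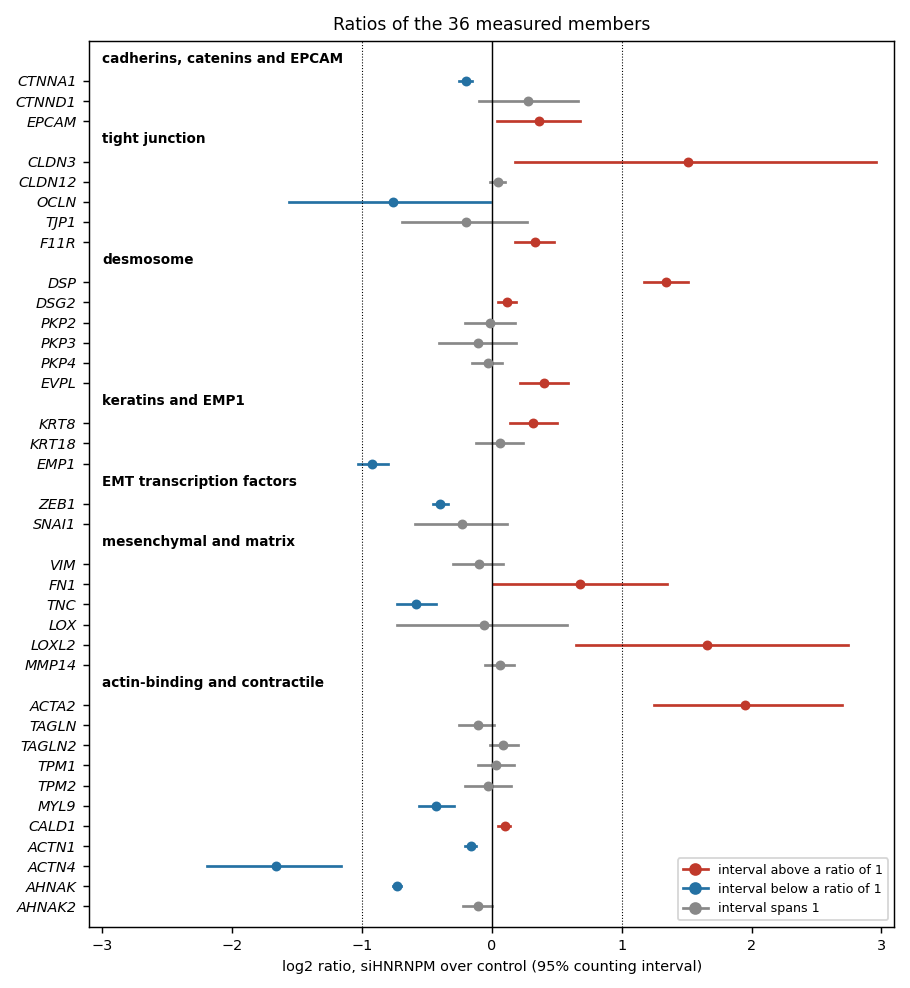
Log2 ratio of siHNRNPM over control for the 36 measured genes by role, with the 95% counting interval of each as a bar, coloured by whether it excludes no change; dotted lines mark 2-fold. DSP at 1.34 and ACTA2 at 1.95 have intervals wholly above the upper dotted line and ACTN4 at -1.66 has one wholly below the lower, while CLDN3 and LOXL2 have wide ones.

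ZEB1 encodes a zinc-finger repressor of epithelial genes such as CDH1 and had the highest level per length of the 6 EMT factor genes in the panel. ZEB1 had 4045 reads or 309 CPM in the siHNRNPM library, against 8083 reads or 407 CPM in the control library. It was lower by a log2 ratio of -0.40 (-0.45 to -0.34), which is 76.0% of the control level and larger than the counting error but under 2-fold. Its antisense gene ZEB1-AS1, which overlaps 366 exonic bases of ZEB1 in the annotation, was higher, with 28.8 CPM against 20.4 CPM (0.50, 0.29 to 0.70).

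SNAI1, which encodes the SNAIL repressor, had 8.02 CPM against 9.40 CPM, with an interval of -0.59 to 0.12. SNAI2 and TWIST1 had 1 read in each library. ZEB2 and TWIST2 had 0 reads in both, and so did the epithelial factor genes GRHL2 and OVOL1, whose products activate junction genes or hold ZEB1 in check. Per length the order of the measured factors was clear in both libraries, with ZEB1 at 35.7 and 47.0 RPKM (CPM per kilobase of exon) and SNAI1 at 4.76 and 5.58 RPKM in the siHNRNPM and control libraries.

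Vimentin (VIM), the intermediate filament protein of mesenchymal cells, had 26.1 CPM with siHNRNPM and 28.1 CPM with control siRNA, with an interval of -0.30 to 0.09. The membrane matrix metalloproteinase gene MMP14 likewise had 85.0 CPM against 81.6 CPM (-0.05 to 0.17). TNC, which encodes the matrix glycoprotein tenascin C, was lower, with 535 reads or 40.9 CPM against 1213 reads or 61.0 CPM. Its log2 ratio was -0.58 (-0.73 to -0.43), 67.0% of the control level. VIM shares 641 exonic bases on the opposite strand with VIM-AS1, which had 164 reads against 273. Strand use in counting is not given, so VIM reads in that stretch could not be assigned with certainty.

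Among matrix genes with few reads, LOXL2 and FN1 were higher. LOXL2, a lysyl oxidase family gene whose product crosslinks collagen, had 27 reads against 13 (log2 ratio 1.66, 0.65 to 2.74). In the annotation it shares 120 exonic bases on the same strand with ENTPD4, which had 1929 reads against 2939. Reads in that stretch could not be assigned with certainty. Fibronectin (FN1) had 41 reads against 39 (0.68, 0.01 to 1.35), and its interval includes no change with DESeq2 size factors, with the control library thinned or at 99%. LOX had 34 reads against 54, with an interval of -0.73 to 0.58. On the opposite strand LOX shares 138 exonic bases with SRFBP1, which had 2981 reads against 3527, so its value is likewise uncertain. SPARC had 4 reads against 9 and S100A4 had 0 against 1.

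Marker lists of other cell types were read beside these genes. The 7 fibroblast markers summed to 3.59 CPM with siHNRNPM and 1.56 CPM with control siRNA. Of them 2 were called 2-fold higher, having reached 1 CPM in the siHNRNPM library alone. These were COL1A1 (21 reads against 13, interval 0.23 to 2.42) and COL1A2 (14 against 8, interval 0.06 to 2.87). Both average under 5 CPM, where 11.3% of all measured genes were called 2-fold higher. DCN and THY1 had 0 reads in both libraries. The 7 hepatocyte markers summed to 33.3 CPM against 0.453 CPM, with AFP at 174 reads against 1, SERPINA1 at 177 against 6 and ALB at 77 against 0, while APOA1 and TTR had 0 reads in both. The part of either in the higher LOXL2, ACTA2, CLDN3 and DSP values was not tested. The 5 endothelial markers summed to 0.840 CPM against 1.36 CPM. Among 8 haematopoietic markers the single measured gene was CD68, a lysosomal gene that many cell lines express, and PTPRC, the pan-leukocyte marker, had 0 reads against 2. Of 8 colon epithelial markers 4 were measured (CDX2, EPCAM, KRT8 and KRT18), summing with the rest to 87.3 CPM against 79.5 CPM, whereas VIL1, LGALS4 and KRT20 had at most 1 read.

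All 11 actin-binding and contractile genes were measured, and 2 were higher, 4 were lower and 5 had intervals that span no change. These shares, 18.2% higher and 36.4% lower, stand beside 22.0% and 26.1% of all measured genes. AHNAK, which encodes a giant scaffold protein beneath the membrane, had the highest level per length in both libraries and the most reads, with 15992 reads or 1222 CPM in the siHNRNPM library and 40269 reads or 2025 CPM in the control library. It was 1.66-fold lower (log2 ratio -0.73, -0.76 to -0.70). The central 95% of the 4832 genes averaging at least 50 CPM ran from -0.53 to 0.43, so AHNAK, EMP1 and TNC lie outside it. AHNAK holds no GTGAGAA in its longest 3′ UTR, and its relative AHNAK2 had 85.1 CPM against 91.7 CPM, with a log2 ratio of -0.11. The summed level of the 57 genes was 4399 CPM in the siHNRNPM library against 5384 CPM in the control library, and most of this gap is AHNAK.

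ACTA2, the smooth muscle alpha-actin gene, had the highest ratio of the panel. It had 61 reads or 4.66 CPM in the siHNRNPM library and 24 reads or 1.21 CPM in the control library, 3.86-fold higher, with a log2 ratio of 1.95 (1.25 to 2.70). ACTA2 shares 380 exonic bases on the opposite strand with FAS, a far more abundant death receptor gene with 53.6 CPM against 40.2 CPM (0.41, 0.27 to 0.56). Whether counting used strand is not given in the sources used here, so reads in that stretch could not be assigned with certainty. ACTA2 spans 88935074 to 88991339 of chromosome 10, minus strand.

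Of the other contractile genes, CALD1 alone was higher and MYL9 was lower. The transgelin gene TAGLN, which encodes a smooth muscle actin-bundling protein, had 56.3 CPM with siHNRNPM and 60.9 CPM with control siRNA (log2 ratio -0.11, -0.25 to 0.02). MYL9, a myosin regulatory light chain gene, was lower at 51.5 CPM against 69.3 CPM (-0.43, -0.56 to -0.29). The tropomyosin genes TPM1 and TPM2, whose products coat actin filaments, had log2 ratios of 0.03 and -0.03, and TAGLN2 had 0.09, all with intervals that span no change. CALD1 (caldesmon), a regulator of actomyosin, was higher by a log2 ratio of 0.10 (0.05 to 0.14) from 563 CPM against 526 CPM.

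The alpha-actinins, which crosslink actin filaments, were both lower but by unlike amounts. ACTN1 had 411 CPM with siHNRNPM and 461 CPM with control siRNA (log2 ratio -0.16, -0.21 to -0.12). ACTN4 had 40 reads or 3.06 CPM against 192 reads or 9.66 CPM, 3.16-fold lower (-1.66, -2.19 to -1.16). ACTN4 also has a copy outside the primary chromosomes of GRCh38, and per length it was at 0.501 RPKM against 1.58 RPKM, far under ACTN1 at 38.7 RPKM against 43.3 RPKM. How reads that fit both copies were counted is not given in the sources used here, so the ACTN4 value is uncertain. With such genes left out, no member was called 2-fold lower.

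**Figure D3:**
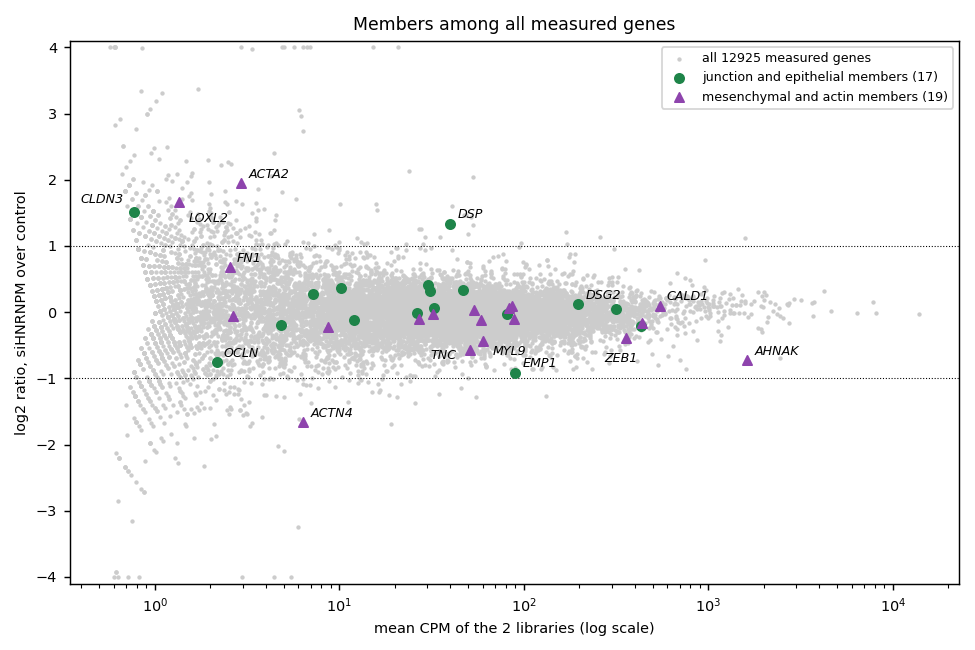
Log2 ratio of siHNRNPM over control against the mean CPM of the 2 libraries (log axis) for all 12925 measured genes (grey), with junction and epithelial members as green circles and mesenchymal and actin members as purple triangles; grey points beyond 4 are drawn at 4. DSP at 1.34, EMP1 at -0.92 and AHNAK at -0.73 lie at the edge of genes of like abundance, whereas CLDN3, LOXL2 and ACTA2 lie where ratios spread widely.

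The rest of each pathway was read from 8 lists that hold no member, 296 genes in all, of which 170 were measured. Of these, 35 were higher (20.6%, against 22.0% of all measured genes) and 76 lower (44.7%, against 26.1%), with a median log2 ratio of -0.08. In the actin cytoskeleton list, 32 of 56 measured genes were lower (57.1%) and 11 higher (19.6%), with a median of -0.08. Calls depend on read depth, and of all measured genes averaging at least 50 CPM, 36.3% were lower and 27.4% higher.

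The actin list included both directions among abundant genes. The cytoplasmic gamma-actin gene ACTG1 was lower, at 1881 CPM with siHNRNPM and 3033 CPM with control siRNA (log2 ratio -0.69, -0.71 to -0.67). The calponin gene CNN3 had -0.73, the LIM-domain gene PDLIM5 -0.57 and ENAH, an actin-elongation gene of the Ena/VASP family, -0.55. In the other direction the tropomyosin gene TPM4 was higher at 1218 CPM against 705 CPM (0.79, 0.76 to 0.82), unlike TPM1 and TPM2. The profilin gene PFN2 had 0.30 and the LIM-domain gene FHL3 0.31.

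Adherens junction genes outside the panel had 8 of 13 measured lower (61.5%, against 26.1% of all measured genes) and 1 higher (7.69%, against 22.0%). The median log2 ratio was -0.16, and 36.3% of all measured genes averaging at least 50 CPM were lower. Vinculin (VCL), which reinforces cadherin-actin links, had 178 CPM against 240 CPM (-0.43, -0.50 to -0.36). The LIM-domain gene AJUBA had -0.42, the nectin gene NECTIN1 -0.41 and the protocadherin gene PCDH1 -0.58. The single higher gene was beta-catenin (CTNNB1), at 358 CPM against 340.1 CPM (0.07, 0.02 to 0.13).

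In the tight junction and polarity list, 7 of 22 measured genes were lower (31.8%, near the 26.1% of all measured genes) and 2 higher (9.09%), with a median of -0.13. The polarity genes MPP5, PARD3 and PRKCI, all lower, had log2 ratios of -0.29, -0.27 and -0.24. CLDN15, a claudin that forms paracellular cation channels, was higher at 0.53 (0.20 to 0.86) and LSR, a tricellular junction gene, at 0.41 (0.24 to 0.58). With the control library thinned to the depth of the siHNRNPM library, 4 genes of this list were higher.

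The desmosome and plakin list had 3 of 5 measured genes lower and 1 higher, too few to read against the 26.1% and 22.0% of all measured genes. The plectin gene PLEC had -0.21, the integrin gene ITGA6 -0.31 and the spectraplakin gene MACF1 -0.04, whereas dystonin (DST) had 0.16 (0.09 to 0.22). The MACF1 interval starts at -0.09 and ends next to no change. With total-count scaling, upper-quartile scaling or a 99% interval, 2 genes of this list were lower. Of 6 measured keratins and partners, 2 were lower (33.3%) and 1, EMP2, was higher (16.7%). The lower ones were PMP22 and, chosen after its values were seen, the basal keratin KRT15 at a log2 ratio of -1.53, which averaged under 5 CPM.

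Among colon epithelial identity genes, 4 of 11 measured were higher (36.4%, against 22.0% of all measured genes), 3 were lower (27.3%, against 26.1%) and the median was 0.04. SPINT2, a membrane inhibitor of serine proteases, was higher at 14.4 CPM against 7.69 CPM (0.91, 0.59 to 1.23), as were the epithelial splicing regulator ESRP2 (0.44, 0.29 to 0.59) and KLF5 (0.32, 0.02 to 0.61). The other higher gene, OVOL2, named after its values were seen, encodes a repressor of ZEB1 and had a log2 ratio of 1.43 at under 5 CPM. Of all measured genes with a mean under 5 CPM, 11.3% were called 2-fold higher. A link between OVOL2 and the ZEB1 value was not tested. CDX2, the intestinal homeobox gene, was lower at 8.10 CPM against 10.7 CPM (-0.40, -0.75 to -0.05), as were ERBB3 (-0.37) and SPINT1 (-0.21).

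Other EMT regulators were split, with 4 of 13 measured higher and 4 lower (30.8% each, against 22.0% and 26.1% of all measured genes) and a median of 0.01. ETS1, an invasion-linked transcription factor gene, was lower at 388 CPM against 676 CPM (-0.80, -0.85 to -0.75), and RUNX2 was lower at -0.70 (-0.90 to -0.50). TEAD1 and SRF, which drive many actin genes, had -0.23 and -0.20. The higher genes were TEAD4 (0.37), TCF3 (0.36), YBX1 (0.20) and SOX4 (0.20).

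Other mesenchymal and matrix genes held 11 higher (25%, against 22.0% of all measured genes) and 17 lower (38.6%, against 26.1%) of 44 measured, with a median of -0.08. Of all measured genes averaging at least 50 CPM, 36.3% were lower. CTGF, a matricellular gene, had 12.8 CPM against 22.3 CPM (-0.80, -1.06 to -0.54). The transglutaminase gene TGM2 and the integrin gene ITGB5 each had -0.65, and S100A10, which encodes the annexin A2 partner, had -0.60. Higher were the matrix metalloproteinase genes MMP10 (0.97, 0.46 to 1.48) and MMP1 (0.61, 0.34 to 0.88), LOXL3 (0.67, 0.17 to 1.17) and the laminin gene LAMB3 (0.26, 0.24 to 0.29).

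**Figure D4:**
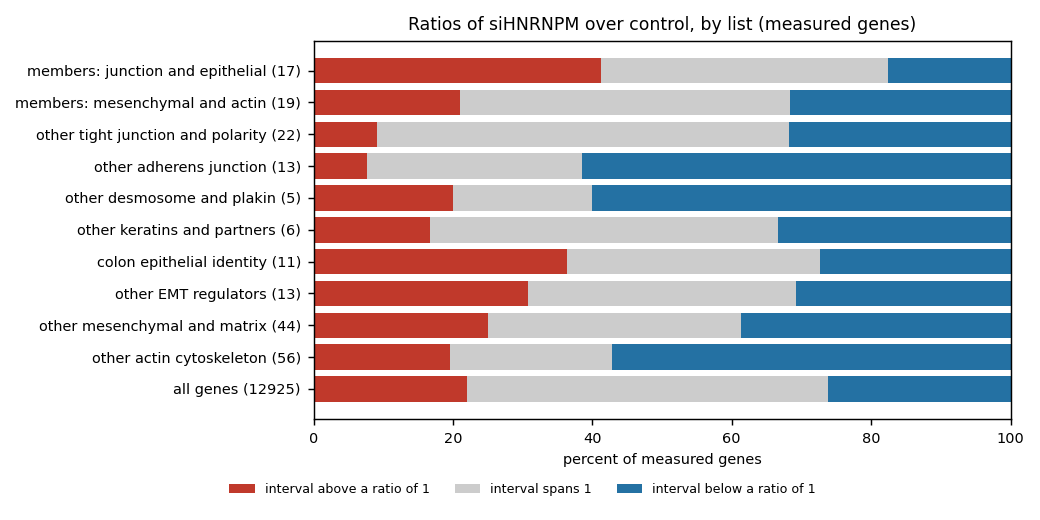
Share of the measured genes of each list, the members and the whole table whose interval lies above a ratio of 1 (red), spans it (grey) or lies below it (blue), in percent, with the number measured in brackets. The share lower is 57.1% in the actin cytoskeleton list and 61.5% in the adherens junction list, against 17.6% of junction and epithelial members, 31.6% of mesenchymal and actin members and 26.1% of all measured genes. Calls depend on read depth, and 36.3% of measured genes averaging at least 50 CPM were lower.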

How the data were processed

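The values deposited by the authors are whole-number read counts per gene symbol for 1 siHNRNPM and 1 control library. HISAT2 2.0.4 and GRCh38 are listed, per the submitters' processing notes; the counter, annotation, strand use and multi-mapped reads are not given in the sources used here. Groups came from the treatment labels and columns from the sample titles. Counts were scaled by TMM (edgeR 4.0.16, R 4.3.3; factors 1.0024 and 0.9976) to CPM, and genes with at least 1 CPM in at least 1 library were measured. Log2 ratios carry exact Clopper-Pearson 95% intervals of the read split (SciPy 1.17.1); a count of 0 was set to 0.5. Intervals cover counting error only. The 2-fold call needs a log2 ratio of 1 or more in size and an interval excluding a ratio of 1. With 1 library per group no test over samples exists. The procedure was tested on simulated Poisson counts, which hold counting error only, so that test cannot speak to variation between cultures. Exon lengths, overlaps, 3′ UTRs and alternate copies came from GENCODE release 29, promoters from RefSeq. From each list up to 4 genes per direction with 5 CPM or more and an interval excluding 1 are named, by largest ratio; a few items are not reported here. Members and lists were chosen with earlier results of these data known. Alternatives covered scaling, filters, depth, interval, fold and alternate copies.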

Additional observations from a re-analysis of the deposited data

How the results depend on the processing

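No paired analysis was possible because each group has 1 library, and no library could be left out. The median of all measured genes stayed within -0.02 to 0.02 under the 4 scalings. With 5 CPM or more required, 1 member was at least 2-fold higher, 7 members were higher and 1 gene of the keratin list was lower. With the whole interval required beyond 2-fold, 2 members were 2-fold higher. Without genes that have an alternate copy, 0 members were 2-fold lower, since ACTN4 is such a gene. When 1.5-fold was enough, 4 members were lower. With the control library thinned, 4 genes of the tight junction and polarity list were higher. The other counts stayed within 1.5 times. Of the values for single members still measured under a setting, 267 kept their call or its absence, 7 lost their call and 5 gained one. Members that a filter removed are not in this tally. With 5 CPM or more required, CLDN3, OCLN, FN1, LOX, LOXL2 and ACTA2 were removed. Without genes that have an alternate copy, OCLN, TJP1 and ACTN4 were removed. The sign changed in 3 values, none of them called: PKP2 at 0.02 (upper quartile) and 0.03 (thinned) and LOX at 0.17 (thinned), against -0.01 and -0.06. The 7 calls lost by members still measured belonged to FN1, OCLN, EPCAM and CLDN3, whose intervals come within 0.2 of no change on the log2 scale. Depth limits what can be said of CDH1, the claudins other than CLDN12, and keratins 19 and 80.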
